A study of Homo sapiens with 5 samples.

Results

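The nuclear factor NF-κB drives the transcription of cytokines, chemokines, adhesion molecules, survival genes and its own inhibitors. In resting cells the RELA and NFKB1 dimer is held in the cytoplasm by IκBα, the product of NFKBIA. Signals from TNF or interleukin-1 receptors, and also DNA damage, activate a kinase complex that marks IκBα for destruction, so that the dimer enters the nucleus. ATF3, a stress-induced member of the ATF/CREB family of basic leucine zipper proteins, is known as a regulator of inflammatory genes, and it binds AP-1 and ATF/CRE elements in dimers with other leucine zipper proteins. p53 is the tumour suppressor that DNA damage activates.

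ATF3 and p53 peaks were examined at 10 genes chosen for their place in this pathway. They were the cytokine and chemokine genes TNF, IL6, CXCL8, CXCL1 and CCL20, the NF-κB subunit gene RELB, the feedback inhibitor genes NFKBIA and TNFAIP3, the survival gene BIRC3 and the adhesion gene ICAM1. They are 10 of the 20163 protein-coding genes of the annotation. Every peak of any list with at least 1 bp between 20 kb upstream of the transcription start site (TSS) and the end of the gene was assigned to it. This window held 24 of the 70702 ATF3 peaks of camptothecin-treated cells, 10 of the 33966 of DMSO-treated cells and 1 of the 2231 of ATF3-knockout cells. It also held 3 of the 9211 p53 peaks of camptothecin-treated cells and 1 of the 7879 of p53-knockout cells.

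The data came from ChIP-seq in HCT116, a human colon cancer cell line, with 1 library for each of 5 conditions. ATF3 was precipitated from ATF3-WT cells given the solvent DMSO (ATF3-Ctrl), from ATF3-WT cells given 1.5 μM of camptothecin (CPT), a topoisomerase I poison that breaks DNA, for 4 h (the ATF3-CPT library), and finally from ATF3-KO cells given DMSO. p53 was precipitated from p53-WT cells given the same dose of CPT (p53-CPT) and from p53-KO cells given DMSO, so these libraries differ in both genotype and treatment. The ATF3-KO line carries a small deletion in an exon of both ATF3 alleles, made by recombination with an adeno-associated virus and selected as single clones, so that clone and genotype cannot be told apart. All cells were fixed with di(N-succinimidyl) glutarate and then formaldehyde.

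Depth was 12947516 tags for ATF3-Ctrl, 15457013 for ATF3-CPT, 12820520 for ATF3-KO, 3169743 for p53-CPT and 1984941 for p53-KO. The findPeaks score of a peak is the peak caller's own whole number of tags, counted from adjusted positions and not scaled to the library. It was above the number of tags behind the normalized tag count at 24.2% of ATF3-CPT peaks and below it at 43.7%. The normalized tag count is scaled to 10000000 tags, so 1 tag is worth 0.647 in ATF3-CPT and 5.038 in p53-KO. The lowest scores listed were 9, 9, 11, 7 and 6 in the same order, and sites that scored lower are not listed. No condition had a replicate, so no difference between conditions was tested. The 95% intervals below are exact Poisson for normalized tag counts, exact conditional binomial for ratios and exact binomial (Clopper-Pearson) for shares. They cover counting error only, and a ratio compares 2 libraries rather than 2 conditions.

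The sequences of the ATF3-CPT peaks at the CXCL8, TNFAIP3 and RELB promoters are shown because the motifs described with these genes lie in them. The upstream sites of CXCL8 and TNFAIP3 that hold an AP-1 core are shown for the same reason. The BIRC3 promoter peak is printed beside them although it holds no exact match to these motifs. All are the plus strand of GRCh37, the build named hg19 in the files, read 5′ to 3′. Capitals mark the AP-1 core (TGACTCA or TGAGTCA), the ATF/CRE core (TGACGTCA) or the NF-κB consensus. That consensus is GGGRNNYYCC, where R is A or G, Y is C or T and N is any base. Only exact matches are marked. The BIRC3 peak ran past the TSS, and only its part upstream of the TSS is printed.
CXCL8 promoter, chr4:74606089-74606213: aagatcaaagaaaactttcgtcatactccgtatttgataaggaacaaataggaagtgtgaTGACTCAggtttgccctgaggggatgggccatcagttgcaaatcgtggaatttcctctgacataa
CXCL8 upstream site, chr4:74591856-74591980: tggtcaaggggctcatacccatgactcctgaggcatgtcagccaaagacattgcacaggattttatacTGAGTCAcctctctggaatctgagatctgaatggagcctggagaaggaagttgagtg
TNFAIP3 promoter, chr6:138188043-138188167: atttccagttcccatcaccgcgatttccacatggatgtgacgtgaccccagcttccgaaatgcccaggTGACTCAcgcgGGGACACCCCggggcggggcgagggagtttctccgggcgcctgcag
TNFAIP3 upstream site, chr6:138173650-138173774: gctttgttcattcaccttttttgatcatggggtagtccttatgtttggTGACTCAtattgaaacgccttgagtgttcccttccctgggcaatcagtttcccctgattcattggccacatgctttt
TNFAIP3 second upstream site, chr6:138174834-138174958: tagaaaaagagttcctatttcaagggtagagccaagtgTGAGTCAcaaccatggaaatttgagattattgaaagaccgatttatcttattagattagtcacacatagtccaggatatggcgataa
RELB promoter, chr19:45504536-45504660: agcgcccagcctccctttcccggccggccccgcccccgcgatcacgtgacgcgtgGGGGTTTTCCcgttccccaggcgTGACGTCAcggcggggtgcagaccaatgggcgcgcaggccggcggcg
BIRC3 promoter, chr11:102188121-102188214: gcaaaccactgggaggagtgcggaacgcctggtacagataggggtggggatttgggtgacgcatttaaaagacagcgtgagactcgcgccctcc

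ATF3 peaks were listed at 9 of the 10 genes after CPT and at 7 in DMSO. Without peaks that overlapped an ATF3-KO peak, 23 peaks at 9 genes remained after CPT and 9 peaks at 6 genes in DMSO. TNF had no peak in any list, and CXCL1 and CCL20 had none in ATF3-Ctrl. Of all protein-coding genes, 80.3% had an ATF3-CPT peak in the same window and 64.0% an ATF3-Ctrl peak, so the 9 and 7 genes bound here lie near the background. The windows were shorter than most, with a median of 24.3 kb (range 21.9 to 56.7 kb) against 44.5 kb over all genes. Per 100 kb of window they held 7.74 ATF3-CPT peaks, against 3.62 over all genes, and 3.22 ATF3-Ctrl peaks, against 1.8. Per gene the order was the other way, with a mean of 2.4 ATF3-CPT peaks against 2.98 over all genes and 1.0 ATF3-Ctrl peaks against 1.48. An ATF3-KO peak lay at 1 of the 10 genes (11.1% of all genes), a p53-CPT peak at 3 (20.9%) and a p53-KO peak at 1 (16.7%). The map of peaks by distance from the TSS shows them all.

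**Figure D1:**
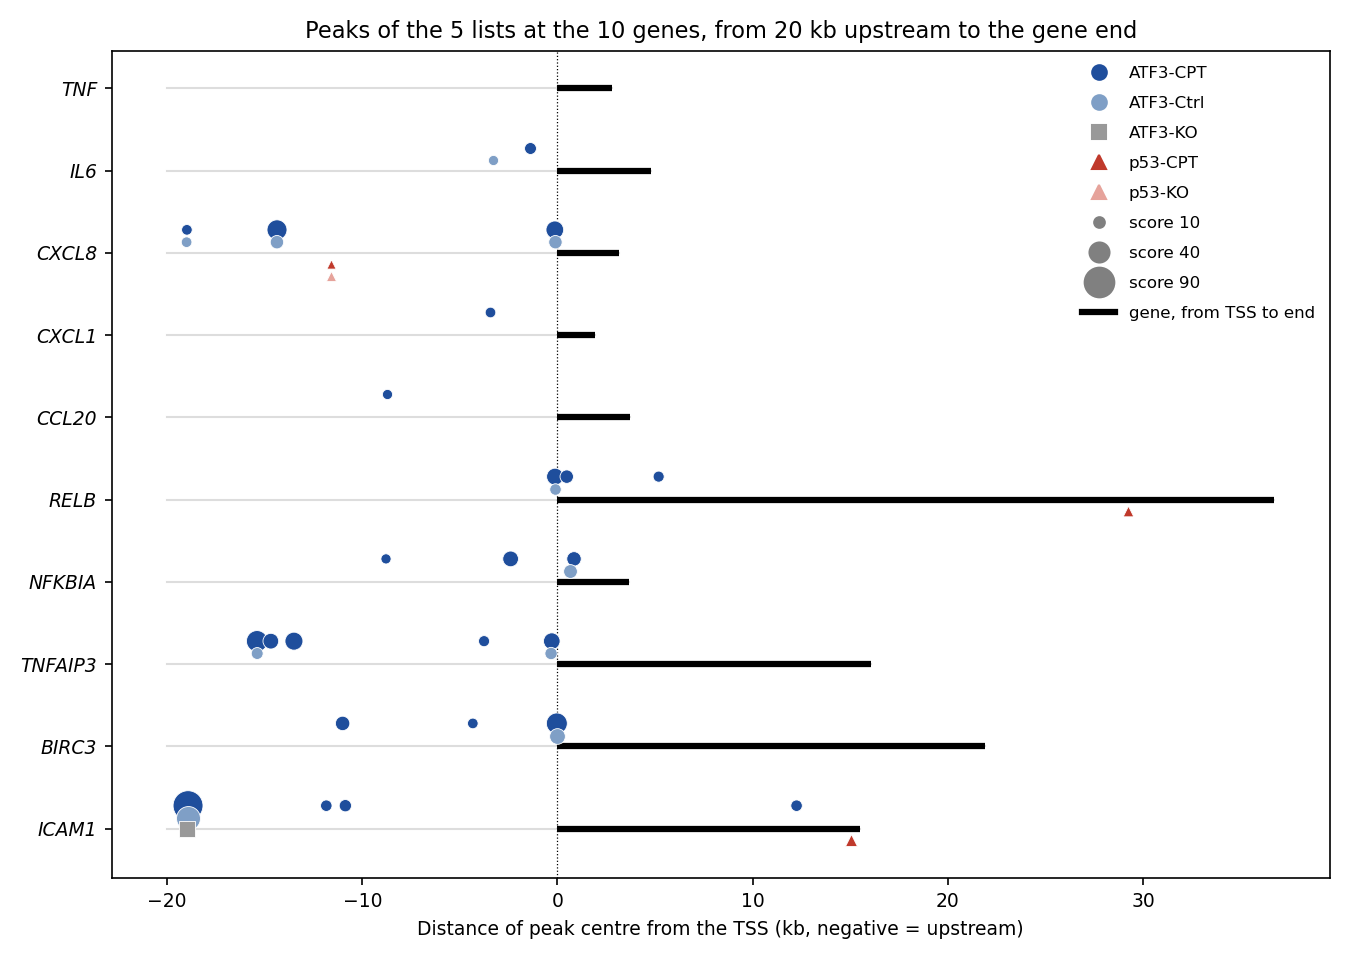
Peaks of the 5 lists at the 10 genes. The x axis is the distance of the peak centre from the TSS in kb (negative is upstream), each row is a gene with its body as a black bar from TSS to end, colours and symbols are the lists and the area of a symbol grows with the findPeaks score. ATF3-CPT peaks (dark blue) lie at 9 genes and p53 peaks (triangles) at 3. Each list is drawn at its own height within a row, so touching or separate symbols do not show overlap. By coordinates no p53 peak drawn overlapped an ATF3 peak.

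Within their windows, the cytokine and chemokine genes other than CXCL8 carried at most 1 ATF3-CPT peak each, with scores of 13 or less, while a far stronger site lay just past the end of CCL20. TNF, the founding cytokine of the pathway, lies on chromosome 6 at 31543342-31546113. Its nearest ATF3-CPT peak was centred 159.2 kb downstream of its TSS in an intron of CLIC1 (score 13), and its nearest ATF3-Ctrl peak was further away at -452.5 kb. The gene sits in the major histocompatibility region, and 40 of the 4030 chromosome 6 peaks of ATF3-CPT lay within 2 Mb of its TSS. Another 185 ATF3-CPT peaks were placed on 7 alternate chromosome 6 sequences and could not be assigned to genes here. The part of this division of reads in the empty TNF window was not tested.

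IL6 encodes interleukin-6, a cytokine that signals through STAT3. Its ATF3-CPT window held 1 peak, at -1423 bp, with a normalized tag count of 9.1 (95% interval 5.0 to 15.2) at a score of 13. ATF3-Ctrl held 1 peak at -3310 bp with a normalized tag count of 7.0 (3.2 to 13.2) at a score of 9. The peaks were 1887 bp apart centre to centre and did not overlap, and both had low scores for their lists, whose smallest score is 9. The gene record of IL6 also holds a transcript that starts at 22765503, just downstream of the ATF3-CPT peak, which ends at 22765458.

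CXCL8 encodes interleukin-8, the chemokine that attracts neutrophils, and it had 3 ATF3 sites, each present in both ATF3-Ctrl and ATF3-CPT. The promoter site at -135 bp had a normalized tag count of 13.1 (7.6 to 21.0) in DMSO and 21.3 (14.7 to 30) after CPT, a ratio of 1.63 with an interval from 0.88 to 3.11. The AP-1 core in capitals above lies in this peak. A larger signal lay at -14368 bp, also over an AP-1 core, with 13.9 (8.2 to 22) in DMSO and 28.5 (20.7 to 38.2) after CPT. Its ratio was 2.05 (1.16 to 3.76), an interval above 1 that overlapped widely with that of the promoter. Both intervals held 1.8, the median ratio over all shared sites. The outermost site at -18984 bp was weak in both libraries, with 7.7 and 6.5 and a ratio of 0.84 (0.31 to 2.24), and it was the only shared site with a ratio below 1.

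CXCL1 and CCL20 encode chemokines for neutrophils and for lymphocytes and dendritic cells. CXCL1 held a single ATF3-CPT peak at -3448 bp, with a normalized tag count of 5.8 (2.7 to 11.1) at a score of 10. CCL20 held a single one at -8708 bp, with a score of 9, the lowest in the list, and a normalized tag count of 5.2 (2.2 to 10.2). Neither overlapped an ATF3-Ctrl peak, and an AP-1 core was found in the CCL20 peak and no exact core in that of CXCL1. The gene record of CCL20 also holds a transcript that starts at 228670455, just downstream of the CCL20 peak, which ends at 228669912. Of the 16190 genes with an ATF3-CPT peak, 3.4% had a lower highest score than CXCL1 and 0.0% a lower one than CCL20, against 62.3% for CXCL8. The stronger site at CCL20 lay outside the window. A peak centred 789 bp past the end of the gene had a normalized tag count of 107.4 (91.7 to 125.0) at a score of 118 in ATF3-CPT. It had a normalized tag count of 61.0 (48.3 to 76.0) at a score of 67 in ATF3-Ctrl, so that CPT was higher by a ratio of 1.76.

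RELB encodes the subunit of the non-canonical pathway and had 3 ATF3-CPT peaks, at -124, 475 and 5184 bp. The first lay at the promoter and was shared with DMSO. Its normalized tag count was 8.5 (4.2 to 15.2) in DMSO and 18.1 (12 to 26.2) after CPT, a ratio of 2.13 (1.03 to 4.75). This peak holds an ATF/CRE core and, 13 bases before it, an NF-κB consensus, both in capitals above. The other peaks lay in introns 1 and 2 of the gene and were listed in ATF3-CPT only, with scores of 17 and 11 and normalized tag counts of 12.9 (7.9 to 20) and 7.1 (3.6 to 12.7). Both hold an AP-1 core.

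Among the inhibitors, TNFAIP3 had the most ATF3-CPT peaks of the 10 genes. It encodes A20, the ubiquitin-editing enzyme that shuts the pathway off, and 5 ATF3-CPT peaks against 2 of ATF3-Ctrl lay in its window. The promoter site at -291 bp had a normalized tag count of 12.4 (7.1 to 20.1) in DMSO and 22 (15.2 to 30.7) after CPT, a ratio of 1.77 (0.96 to 3.45). Its sequence above holds an AP-1 core followed 4 bases later by an NF-κB consensus, which reads as a match on both strands. Further upstream, 3 peaks stood within 2 kb of each other, at -15392, -14684 and -13500 bp. The first was shared and had the highest ratio of the 8 shared sites, with a normalized tag count of 11.6 (6.5 to 19.1) in DMSO and 32.3 (24.0 to 42.6) after CPT, or 2.78 (1.54 to 5.35). The other 2 were in ATF3-CPT only, with normalized tag counts of 18.1 (12 to 26.2) and 20.1 (13.6 to 28.5), and each holds an AP-1 core. The weakest, at -3761 bp, had a score of 11.

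NFKBIA, the gene of IκBα, had 3 ATF3-CPT peaks and 1 ATF3-Ctrl peak, and none overlapped. The highest, at -2400 bp, had a normalized tag count of 16.8 (11 to 24.6) at a score of 24, and no peak was listed there in DMSO. In intron 1 the ATF3-Ctrl peak at 648 bp and the ATF3-CPT peak at 847 bp were 199 bp apart centre to centre, with normalized tag counts of 12.4 (7.1 to 20.1) and 12.3 (7.4 to 19.2). The third, at -8784 bp, had the lowest score that is listed, 9. None of the ATF3-CPT peaks at NFKBIA held an exact AP-1, ATF/CRE or NF-κB match.

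BIRC3, whose product cIAP2 is a ubiquitin ligase that protects cells from TNF-induced death, had its strongest peak at the TSS. The site at -32 bp had a normalized tag count of 20.1 (13.1 to 29.4) in DMSO and 30.4 (22.3 to 40.4) after CPT, a ratio of 1.51 (0.92 to 2.55), and held no exact core. Peaks at -11007 bp, with a normalized tag count of 12.3 (7.4 to 19.2) at a score of 20, and at -4337 bp, with 7.1 (3.6 to 12.7) at a score of 10, were listed in ATF3-CPT only.

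ICAM1 encodes the adhesion molecule to which leukocyte integrins bind, and its window held the highest ATF3 score of the set. This peak, with a normalized tag count of 69.9 (57.3 to 84.4) at a score of 92 in ATF3-CPT and 57.9 (45.6 to 72.6) in ATF3-Ctrl, lay -18926 bp from the ICAM1 TSS but -20 bp from that of MRPL4, a mitochondrial ribosome protein gene. Its ratio was 1.21 (0.89 to 1.64). It was also the only site of the set in the ATF3-KO list, with a normalized tag count of 19.5 (12.6 to 28.8) at a score of 25, while 2.6% of all ATF3-CPT peaks overlapped an ATF3-KO peak. A peak was therefore listed there in cells without ATF3. The ATF/CRE core at its centre is shown with its surroundings, since it is the only such core besides that of RELB.
MRPL4 promoter site in the ICAM1 window, chr19:10362847-10362876: cgtcgcgtgcgTGACGTCAtccagcggcgc

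The other 3 ATF3-CPT peaks of the ICAM1 window had scores of 12, 14 and 12 and were absent from the ATF3-Ctrl list. They lay at -11843 bp in intron 8 of MRPL4, at -10866 bp between the genes over an AP-1 core, and at 12249 bp in intron 2 of ICAM1. No list held a peak within 2 kb of the ICAM1 TSS.

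Across the set, 16 of 24 ATF3-CPT peaks, or 66.7% (44.7 to 84.4), overlapped no ATF3-Ctrl peak, against 61.7% of all ATF3-CPT peaks. Conversely 8 of the 10 peaks in ATF3-Ctrl were shared with ATF3-CPT, and 79.8% of all were. The peaks listed after CPT only were weak, with a median score of 12.5 and none above 32, and the shared ones had a median of 35.5. Over all peaks these medians were 13 and 33. At the 8 shared sites together 188 tags in DMSO and 354 after CPT gave a ratio of 1.58 (1.32 to 1.89). Divided by the median ratio of all shared sites it was 0.88, below 1. The ratio lay above 1 at 7 of the 8 sites and its interval at 3. The median of 1.70 was close to the median of 1.80 over all 27104 shared sites (quartiles 1.12 and 2.64). A ratio of 2 or more was reached at 3 of the 8 sites (43.7% of all shared sites) and 0 of the 8 were lower by that factor (2.45%). The 3 sites were the upstream sites of CXCL8 and TNFAIP3 and the promoter of RELB. In ATF3-CPT a larger share of tags lay in peaks, 12.76% against 5.6% in ATF3-Ctrl, and the part of this in the ratios was not tested.

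**Figure D2:**
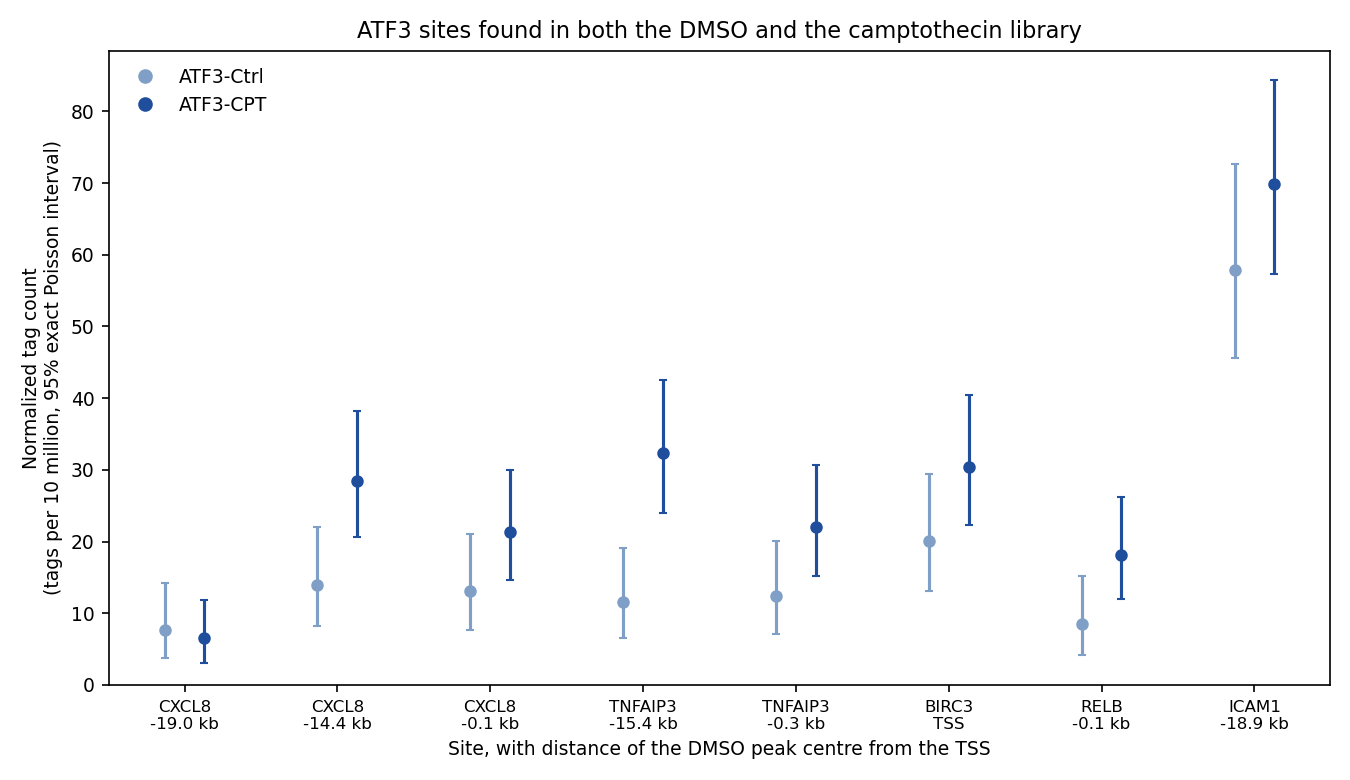
Normalized tag counts (tags per 10000000, y axis from 0) at the 8 sites listed in both ATF3-Ctrl (light blue) and ATF3-CPT (dark blue) with 95% exact Poisson intervals as bars. The x axis names each site by gene and distance from the TSS. The ATF3-CPT point is higher at 7 of 8 sites, and the intervals are apart only at the upstream site of TNFAIP3.

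By position, 8 of 24 ATF3-CPT peaks (33.3%, 15.6 to 55.3) were centred within 2 kb of a protein-coding TSS, against 18.0% of all ATF3-CPT peaks. The remaining 16 peaks were distal to such TSS. Every window holds the TSS of its gene by definition, while the 18.0% also counts peaks far from any gene. The choice of windows by itself therefore raises the share, and peaks in the same windows of all genes were not compared. The promoter of the gene itself was bound within 2 kb of the TSS at IL6, CXCL8, NFKBIA, TNFAIP3, BIRC3 and RELB after CPT. In DMSO the same was seen at 5 genes, that is without IL6. These distances were taken from the TSS of the canonical transcript. The ATF3-CPT peak just upstream of the outer transcript start of CCL20 was therefore not counted. Of all protein-coding genes, 51.7% had an ATF3-CPT peak within 2 kb of their own TSS and 36.9% an ATF3-Ctrl peak. When the TSS of genes of every type were used, the share of peaks near a TSS was 54.2%, against 25.3% of all ATF3-CPT peaks. The same limit of the windows holds for this comparison.

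By sequence, an exact AP-1 core was found in 9 of the 24 peaks, or 37.5% (18.8 to 59.4), close to the 40.6% of all ATF3-CPT peaks. These 9 lay at CXCL8 (2), CCL20, TNFAIP3 (3), RELB (2) and ICAM1. An ATF/CRE core was found in 2 peaks, or 8.3% (1.0 to 27.0), at the RELB and MRPL4 promoters, against 1.41% of all. An NF-κB consensus was found in 2 peaks, at the TNFAIP3 and RELB promoters, against 2.38% of all. It overlapped neither core in these peaks. In the RefSeq promoters of GRCh38, from 250 bases before to 50 after the start, 9 of the 10 genes had an entry, all but RELB. An exact NF-κB consensus was found in 6 of these 9, namely IL6, CXCL1, CCL20, NFKBIA, TNFAIP3 and BIRC3. It was found in 12.7% of 22198 promoter entries of protein-coding genes. TNF, CXCL8 and ICAM1 held no exact match. An exact search leaves out near matches, such as tggaatttcc in the CXCL8 promoter peak printed above, which differs by 1 base. In the 88 promoter entries of other genes of the pathway the exact consensus was found in 32.95%, and the 10 genes were chosen for their place in this pathway. The matches at TNFAIP3 differed from that in its ATF3-CPT peak, and the ATF3-CPT peaks of BIRC3 held none. The AP-1 core was found in 1 of the 9 promoters, that of CXCL8, against 4.01% of all, and the ATF/CRE core in none, against 2.26%. These matches describe letters in the reference, on either strand, and not binding by NF-κB.

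A p53-CPT peak was listed at CXCL8, RELB and ICAM1, and 0 of these 3 peaks overlapped an ATF3-CPT peak, as 10.5% of all p53-CPT peaks did. Their scores were 7, 10 and 13, in a list whose median is 12. The CXCL8 peak at -11608 bp had a normalized tag count of 41.0 (21.8 to 70.1) and was also listed in p53-KO with 55.4 (27.7 to 99.2), so a peak was listed there in cells without p53. Of all p53-CPT peaks 60.9% overlapped a p53-KO peak. Without such peaks, 2 p53-CPT peaks at 2 of the 10 genes remained, against 10.5% of all protein-coding genes with a p53-CPT peak of this kind. The reference sequence of the CXCL8 peak holds a run of 26 CA units and no p53 motif. Runs of at least 10 CA units were found in 48.2% of p53-CPT peaks that overlap a p53-KO peak and in 26.6% of the others. The nearest ATF3-CPT centre was 2760 bp away, at the upstream site printed above.

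At RELB the p53-CPT peak lay at 29222 bp in intron 8, with a normalized tag count of 37.9 (19.6 to 66.1) and no p53-KO overlap. It holds a p53 motif with 2 mismatches, and the nearest ATF3-CPT centre was 20976 bp away. At ICAM1 the peak lay at 15057 bp in the last exon, over the 3′ untranslated region, with the same normalized tag count and no p53-KO overlap. It was -778 bp from the TSS of ICAM4 and held 2 matches to the p53 motif with 3 mismatches. The nearest ATF3-CPT peak was 2808 bp away, in intron 2 of ICAM1. A p53 motif of at most 3 mismatches was found in 20.3% of all p53-CPT peaks and in 44.6% of those without p53-KO overlap.

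The p53-CPT peak nearest to each TSS without p53-KO overlap lay over an ATF3-CPT peak at TNFAIP3, at BIRC3 and, much further away, at a peak shared by CXCL8 and CXCL1. It did not at IL6, CCL20, TNF, NFKBIA, RELB and ICAM1. Of all p53-CPT peaks 10.5% overlapped an ATF3-CPT peak. That share includes peaks with p53-KO overlap, and the share without them was not counted. The sites described here were chosen after their values were seen. A p53-CPT peak at -53738 bp from the TNFAIP3 TSS, with a normalized tag count of 47.3 (95% exact Poisson interval 26.5 to 78.1) at a score of 14, overlapped no p53-KO peak. It overlapped an ATF3-CPT peak with a normalized tag count of 26.5 (19 to 36.0) at a score of 41 that had no counterpart in ATF3-Ctrl. Near BIRC3, a p53-CPT peak at -61033 bp had a normalized tag count of 116.7 (82.2 to 160.9) at a score of 36, above each of the 3 p53-CPT peaks in the windows. It overlapped an ATF3-CPT peak with a normalized tag count of 25.2 (17.9 to 34.5) at a score of 36, again without a counterpart in DMSO. The BIRC3 p53-CPT peak held 2 matches to the p53 motif, the closest with 3 mismatches, and the ATF3-CPT peak there held none. The TNFAIP3 p53-CPT peak held 1 match, with 1 mismatch. For both genes the nearest protein-coding TSS to the p53 peak was that of the gene itself, and no assay here links the sites to it. The sequences of the ATF3-CPT peaks are given with the p53 motif (TNFAIP3) or the AP-1 core (BIRC3) in capitals, since both factors were listed over them.
TNFAIP3 far upstream site, chr6:138134601-138134725: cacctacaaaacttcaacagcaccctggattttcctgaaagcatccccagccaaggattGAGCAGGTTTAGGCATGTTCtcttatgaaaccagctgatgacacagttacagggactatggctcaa
BIRC3 far upstream site, chr11:102127061-102127185: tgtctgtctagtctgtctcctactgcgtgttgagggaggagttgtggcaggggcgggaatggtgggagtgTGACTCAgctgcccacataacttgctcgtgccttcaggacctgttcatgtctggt

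At IL6 a p53-CPT peak lay 19516 bp downstream of the TSS, past the gene end, with a normalized tag count of 59.9 (36.1 to 93.6) at a score of 19, no p53-KO overlap and 3 matches to the p53 motif, the closest with 1 mismatch. It overlapped no ATF3-CPT peak. The p53-CPT peak nearest to TNF without p53-KO overlap was at -88.0 kb, with a score of 13 and a p53 motif without mismatch (0), and its nearest TSS was that of MICB. At NFKBIA and CCL20 the nearest such peaks were 190.2 kb and -346.9 kb away, with scores of 9 and 8. CXCL8 and CXCL1 shared their nearest one, 675.2 kb and 546.4 kb away near AREG, with a score of 40, over an ATF3-CPT peak.

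**Figure D3:**
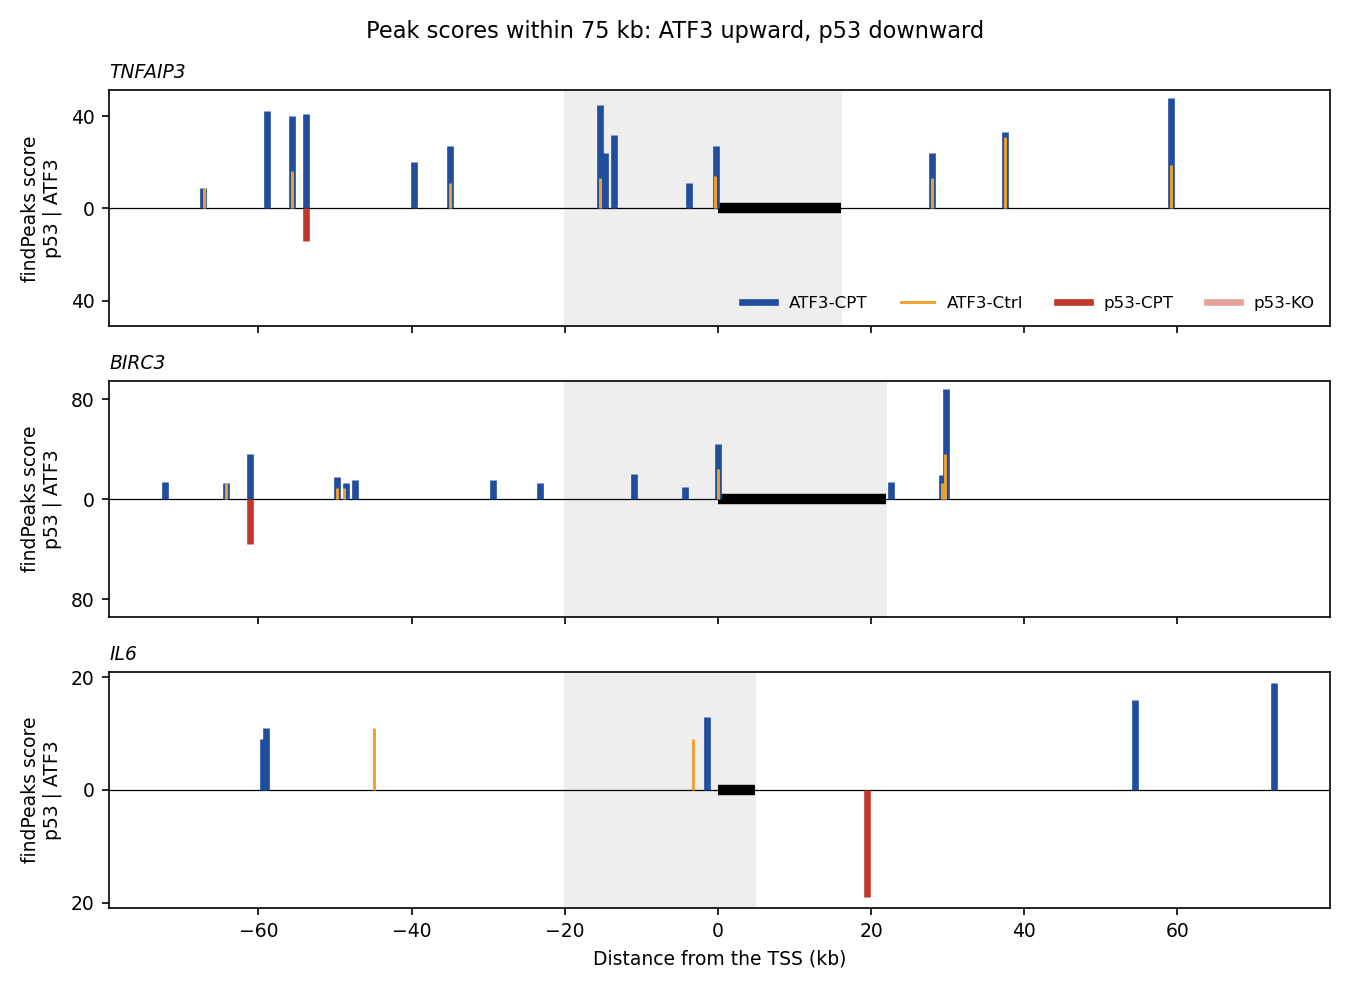
findPeaks scores (y axis, in tags) of the peaks within 75 kb of the TSS of TNFAIP3, BIRC3 and IL6, by distance from the TSS in kb (x axis). ATF3-CPT is drawn upward in dark blue with ATF3-Ctrl as a thin orange line over it, p53-CPT is drawn downward in red, the windows are shaded and the gene bodies are black. The p53-CPT peaks of TNFAIP3 (score 14) and BIRC3 (score 36) lie under ATF3-CPT peaks, that of IL6 (score 19) does not, and no p53-KO peak lies within the range drawn.

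The p53 libraries were shallow, and the lowest normalized tag count of any peak was 18.9 in p53-CPT and 25.2 in p53-KO, against 4.5 in ATF3-CPT. No p53 peak with a lower value is therefore listed at any gene.

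Of 63 other genes of the pathway, listed by role, 50 (79.4%) had an ATF3-CPT peak and 40 (63.5%) an ATF3-Ctrl peak, close to the 80.3% and 64.0% of all genes. An ATF3-KO peak lay at 7 (11.1%, as over all genes), a p53-CPT peak at 9 (14.3%, against 20.9%) and a p53-KO peak at 6 (9.5%, against 16.7%). Per 100 kb they held 7.71 ATF3-CPT and 3.28 ATF3-Ctrl peaks, against 3.62 and 1.8 over all genes. Their windows were shorter, with a median of 32.4 kb against 44.5 kb. Per gene the means were 3.4 ATF3-CPT and 1.44 ATF3-Ctrl peaks, against 2.98 and 1.48 over all genes. ATF3-CPT peaks lay at 4 of 4 subunit genes, 5 of 5 inhibitor genes and 15 of 15 genes of kinases and adaptors. They lay at 7 of 11 receptor genes, 9 of 16 ligand genes and 10 of 12 other target genes. With 80.3% of all protein-coding genes bound in such a window, these small counts show nothing particular to a role. No ATF3 peak of either wild-type library was listed at the receptor genes CD40, TLR4, CXCR2 and CCR6. The same held for the ligand genes CXCL5, CXCL10, CCL2, CCL5, IL1B, LTA and LTB, and for VCAM1 and SELE, the adhesion genes of endothelium. LTA and LTB lie on chromosome 6, and peaks on its alternate sequences could not be assigned to genes.

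The 5 highest ATF3-CPT scores among these 63 were at BCL2L1, IL6R, SOD2, BIRC2 and TNFRSF1B, each listed also in DMSO with a lower normalized tag count. They were picked by their ATF3-CPT score, and this choice by itself favours a lower value in DMSO. Over all shared sites the median ratio was 1.8, and 12.76% of tags lay in peaks in ATF3-CPT against 5.6% in ATF3-Ctrl. BCL2L1, which encodes the survival protein BCL-XL, had a score of 106 at 23500 bp, with a normalized tag count of 84.8 (70.9 to 100.6) against 27.0. At IL6R, the receptor of interleukin-6, the score was 105 and the normalized tag count 86.7 (72.6 to 102.7) against 27.0. SOD2, the mitochondrial superoxide dismutase, had a score of 95 at -8449 bp and 78.9 (65.5 to 94.2) against 22.4. BIRC2, the neighbour of BIRC3 that encodes cIAP1, had a score of 88 at 3 bp from its TSS and 80.9 (67.3 to 96.4) against 31.7. TNFRSF1B, a TNF receptor, had a score of 73 and 59.5 (48.0 to 73.0) against 20.9. Within the windows of the 10 genes, the highest score at a site nearest to the gene itself was 45, at TNFAIP3, and the site past the end of CCL20 had 118.

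**Figure D4:**
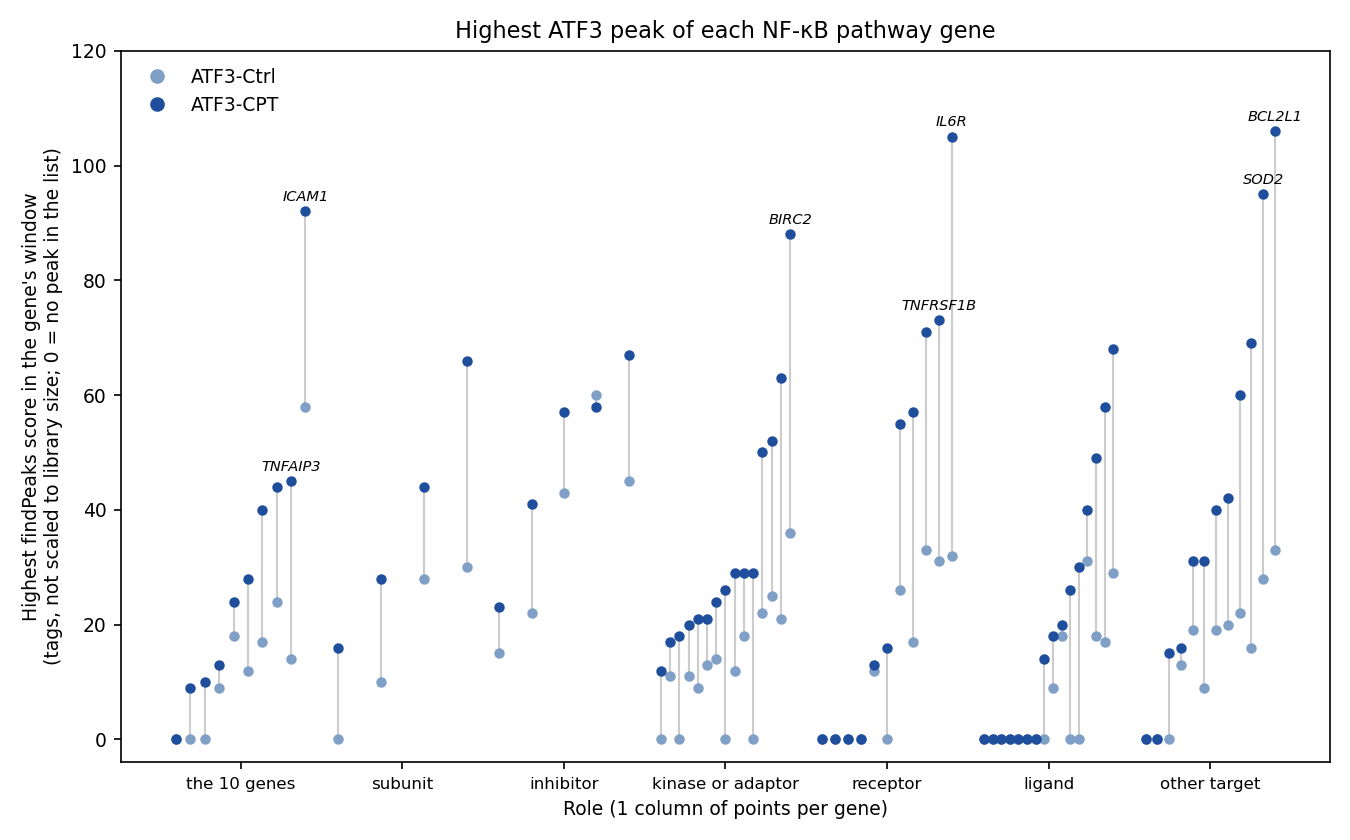
Highest findPeaks score in the window of each gene in ATF3-Ctrl (light blue) and ATF3-CPT (dark blue), joined by a line, with genes grouped by role along the x axis and the y axis in tags from the score itself (0 stands for no peak in the list, and scores are not scaled to library size). ICAM1, whose peak lies at the MRPL4 promoter, has 92, and BCL2L1 has the highest score with 106.

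A p53-CPT peak without p53-KO overlap lay at 5 of the 63 genes, BCL2L1, IL6R, TNFRSF1B, LIF and MAP3K14, and at 10.5% of all protein-coding genes. BCL2L1 held 2 of these p53-CPT peaks. The one with the highest score, 38, had a normalized tag count of 129.3 (92.8 to 175.5) and overlapped the ATF3-CPT peak at 23500 bp. At IL6R the p53-CPT peak had a normalized tag count of 18.9 (6.9 to 41.2) at a score of 7 and also overlapped an ATF3-CPT peak. LIF, a cytokine of the interleukin-6 family, had a p53-CPT peak at 896 bp with a score of 13, MAP3K14, the kinase NIK of the non-canonical pathway, had one with a score of 13, and TNFRSF1B had one with a score of 9. These last 3 overlapped no ATF3-CPT peak.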

How the data were processed

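ChIP-seq reads were aligned by the authors to hg19 with BWA 0.6.1, and peaks were called in each library separately with HOMER 4.1, as the submitters' processing notes and the file headers name them. No input library is named in the file headers. Thresholds of the deposited peak lists were a false discovery rate of 0.001, 4-fold enrichment over the surrounding 10 kb and a local p-value of 0.0001. The normalized tag count is a signal that the authors scaled to 10000000 tags, and 100.0% of the deposited values matched a whole number of tags within their rounding. The score deposited by the authors is a whole number of tags counted by the peak caller from adjusted positions, not adjusted for library size. The fold change over the local region (a ratio), the p-value, the focus ratio (a fraction) and the clonal fold change that the authors deposited were not used in any comparison.

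Peaks on the main chromosomes were assigned to genes with GENCODE release 44 mapped to GRCh37, and the TSS was that of the canonical transcript, a choice made after the files had been seen. Coordinates are printed as deposited. Overlap was at least 1 bp, and for shared sites the overlapping ATF3-CPT peak of highest score was used. Motifs were searched as exact matches on both strands of the reference (p53 motif with at most 3 mismatches), with Python 3.11.15, NumPy 2.4.6, pandas 2.3.3 and SciPy 1.17.1. Before use, the code passed 7 tests on simulated peaks with known answers. The members, the pathway list and the tests were chosen with earlier results of these data known. All 10 members are named, with the highest peak of each list and every p53 peak in full, and of the other pathway genes the 5 highest and those with a p53-CPT peak absent from p53-KO. Alternatives changed the window, the score required, the value compared, the limit of the ratio, the motif search and the TSS. No test between conditions was made, as each had 1 library.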

Additional observations from a re-analysis of the deposited data

How the results depend on the processing

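No paired analysis was possible because each condition had 1 library, and for the same reason no replicate could be left out. Of 84 alternative values for 25 results, 46 stayed within 1.5 times the count or within the interval of the value reported, 37 did not and 1 turned in direction. A window from 10 kb upstream gave 6 ATF3-Ctrl and 15 ATF3-CPT peaks at the 10 genes, 0 ATF3-KO and 0 p53-KO peaks (at 0 genes each) and 3 other pathway genes with a p53-KO peak. A window of 50 kb on both sides gave 32 ATF3-Ctrl, 74 ATF3-CPT, 2 ATF3-KO (2 genes), 6 p53-CPT (5 genes) and 4 p53-KO peaks (3 genes). A score of at least 20 left 2 ATF3-Ctrl peaks (2 genes), 12 ATF3-CPT peaks and 0 p53-CPT or p53-KO peaks (0 genes). It left 20 other pathway genes with an ATF3-Ctrl peak, 1 with an ATF3-KO peak, 2 with a p53-CPT peak and 1 with a p53-KO peak, a CPT-only share of 41.7%, a summed ratio of 1.29, 0 sites with a ratio of 2 and 5 peaks with an AP-1 core. With scores divided by library totals 1 site reached a ratio of 2. Dividing by the median ratio of all shared sites turned the summed ratio from above 1 to below it, at 0.88, and gave 0 such sites, and a limit of 1.5 gave 6 sites. Allowing 1 mismatch gave 16 peaks with an AP-1 core (70.7% of all ATF3-CPT peaks), 8 with an ATF/CRE core (14.2%) and 8 with an NF-κB consensus (27.1%). Within 200 bp around the centre 5 peaks held an NF-κB consensus (4.3% of all). Starting windows at the outermost start of the gene record, chosen after seeing the data, gave 26 ATF3-CPT peaks. Using the TSS of genes of every type gave a promoter share of 54.2%. Lowest listed scores of 6 to 11 limit what the lists can show.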

Other observations

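Chemokine genes of the cluster on chromosome 4, chosen after their values were seen, differed widely in their ATF3 peaks. CXCL2 and CXCL3 encode neutrophil chemokines closely related to CXCL1. In the same kind of window CXCL2 held 6 ATF3-CPT and 3 ATF3-Ctrl peaks, the highest with a score of 49 at -10057 bp and a normalized tag count of 34.3 (25.7 to 44.9, the 95% exact Poisson interval) after CPT and 8.5 in DMSO. CXCL3 held 4 and 2, the highest with a score of 68 at -18312 bp and a normalized tag count of 50.5 (39.9 to 63.0) after CPT and 25.5 in DMSO. CXCL1 held the 1 peak with a score of 10 described above, and CXCL5 held none. CXCL6 held 3 ATF3-CPT peaks and no ATF3-Ctrl peak, the highest with a score of 26 at 7823 bp.

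Within 5 kb outside the windows lay 9 further ATF3-CPT peaks at 5 of the 10 genes, with scores from 9 to 118. After the site past the end of CCL20, the highest was this CXCL6 peak, which lay at -24892 bp from the CXCL1 TSS, with a normalized tag count of 16.2 (10.5 to 23.9) at a score of 26, over an AP-1 core. LTB, a ligand gene of the TNF family, had 2 p53-CPT and 2 p53-KO peaks in its window and no ATF3 peak on the main chromosome 6 sequence.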
